A study of Mus musculus with 8 samples.

Results

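The feedback inhibitors of ERK signalling were examined in mouse aortic smooth muscle cells (MASMCs) exposed to PDGF-BB, with and without *Hint1*. The group was set by gene symbol and held 10 genes, of 18533 symbols in the count files: the MAP kinase phosphatases *Dusp4*, *Dusp5*, and *Dusp6*, the Sprouty genes *Spry1*, *Spry2*, and *Spry4*, the Spred genes *Spred1*, *Spred2*, and *Spred3*, and the transcription factor *Etv5*. All 10 were among the 13535 genes that passed a filter on low counts and were tested. RNA-Seq counts were available from MASMCs of WT mice (n = 4) and of Hint1-/- mice (n = 4), and every sample of both genotypes had received PDGF-BB at 20 ng/mL for 24 hours. The cells were primary cultures grown from the aortas of male mice aged 4 to 6 weeks after removal of adventitia and endothelium. The study's methods name the thoracic aorta in one place and the whole aorta in another, and the extraction notes in the labels describe ground aortic tissue beside cultured cells; the Hint1-/- mice came from another laboratory, their strain is not given in the sources used here, and the study's methods describe its comparisons as between littermates. No sample without PDGF-BB was analysed here, so the levels describe cells under the growth factor and not the change that it caused. The sources do not say whether the samples of a genotype came from separate mice or cultures, and the p-values measure the spread between these samples. That spread was small, with a biological coefficient of variation (spread beyond counting noise) of 3.79%. Whether it includes variation between animals is not known.

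PDGF-BB binds receptor tyrosine kinases that activate Ras, Raf, MEK, and ERK in sequence. ERK then raises the transcription of its own inhibitors. Dual-specificity phosphatases remove phosphate from ERK itself, Sprouty proteins block the path from the receptor to Ras and Raf, and Spred proteins bring the Ras inactivator neurofibromin to the membrane. Levels of these transcripts are widely read as a sign of ERK output, and in smooth muscle this pathway is linked to proliferation and to loss of the contractile state. *Etv5* is not an inhibitor. It encodes an ETS transcription factor whose transcript also follows ERK activity.

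The start regions of 3 of the genes are shown because *Spry1* and *Spry2* are Sprouty genes that were higher, and *Dusp5* a phosphatase that was lower, in Hint1-/- MASMCs. Each window runs from 250 bases before to 50 bases after a RefSeq start on GRCm38.p6, 5′ to 3′ on the strand of the gene. They are chr3:37639697-37639996 on the plus strand for *Spry1*, chr14:105896770-105897069 on the minus strand for *Spry2*, and chr19:53528895-53529194 on the plus strand for *Dusp5*. Capitals mark the motifs found on either strand, which are a GC box in *Spry1*, an ETS core in *Spry2*, and a GC box followed by a pair of adjoining CArG boxes in *Dusp5*.
Spry1: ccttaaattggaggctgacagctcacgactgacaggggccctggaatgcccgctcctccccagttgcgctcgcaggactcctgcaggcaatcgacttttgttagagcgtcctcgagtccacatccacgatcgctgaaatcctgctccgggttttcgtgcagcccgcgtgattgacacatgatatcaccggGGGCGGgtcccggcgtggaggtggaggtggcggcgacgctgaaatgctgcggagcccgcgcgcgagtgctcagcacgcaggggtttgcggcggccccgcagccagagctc
Spry2: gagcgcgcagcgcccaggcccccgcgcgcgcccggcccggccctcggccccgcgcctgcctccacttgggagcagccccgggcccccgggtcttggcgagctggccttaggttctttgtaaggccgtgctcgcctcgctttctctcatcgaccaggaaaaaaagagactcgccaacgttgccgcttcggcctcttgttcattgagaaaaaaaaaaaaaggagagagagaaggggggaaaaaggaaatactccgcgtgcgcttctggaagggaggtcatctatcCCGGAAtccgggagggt
Dusp5: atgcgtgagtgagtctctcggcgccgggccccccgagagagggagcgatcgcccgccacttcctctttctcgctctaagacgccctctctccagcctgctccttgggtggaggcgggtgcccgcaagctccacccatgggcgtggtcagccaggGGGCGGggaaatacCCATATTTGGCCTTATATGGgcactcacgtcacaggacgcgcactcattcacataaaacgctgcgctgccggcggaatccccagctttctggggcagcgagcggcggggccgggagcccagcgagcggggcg

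A CArG box is the binding sequence of serum response factor, and an ETS core is read by ETS factors such as the product of *Etv5*. RefSeq windows were searched for 8 of the 10 genes, without *Dusp4* and *Spry4*, with 9 windows in all because *Etv5* has a pair of starts. The ETS core was searched as CCGGAA, the AP-1 site as TGANTCA, the cyclic AMP response element as TGACGTCA, and the GC box as GGGCGG, each on both strands, and the CArG box was searched by its usual definition. No motif overlapped another in the printed windows. Among the 32851 windows of all genes, 14.9% held the ETS core and 1.63% a CArG box. Of the 9 windows here, that of *Spry2* was the only one with this 6-letter form of the ETS core. That of *Dusp5* was the only one with a CArG box, of which it held 2. The shorter GGAA, which occurs in the printed windows, was not searched. None of the 9 held the AP-1 site (7.81% of all windows) or the cyclic AMP response element (1.79%). GC boxes, present in 35.7% of all windows, were found in 6 of the 9. The GC content of the 9 windows ran from 55.0% to 74.0%, against a median of 52.7% over all windows. Its part in the count of GC boxes was not tested. The CArG box was added to the search after the windows had been read, and a match describes letters and not binding.

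The libraries were alike in depth. Each sample held between 20778077 and 20888041 estimated counts, and the scaling factors lay between 0.993 and 1.01. *Hint1* itself had 2272, 2336, 2364, and 2301 counts in WT samples and 713, 748, 778, and 715 counts in Hint1-/- samples, so its transcript fell by 67.9% in the knockout and was not lost, and the part of the gene deleted is not given in the sources used here. In WT, smooth muscle markers ranged from 2.47 CPM (counts scaled to a common library size) for *Des* to 1152 CPM for *Cald1*. *Acta2* stood at 826 CPM in WT and, at 578 CPM, was lower in the knockout. *Myh11* fell from 20.4 to 6.98 CPM and *Cnn1* from 15.1 to 6.93 CPM, while *Smtn* rose from 156 to 185 CPM. By q-PCR, the study reported *Acta2*, *Tagln*, and *Cnn1* as higher in *Hint1*-deficient MASMCs. In these counts *Acta2* and *Cnn1* went the other way, and *Tagln* overlapped between the genotypes, at 403 CPM in WT and 374 CPM in the knockout. The cause of this contrast was not tested. Transcripts that mark other cell types were also present and differed between the genotypes. The 8 macrophage markers summed to between 1014 and 1120 CPM in WT and to between 810 and 871 CPM in Hint1-/- samples, with 6 of the 8 lower and none higher. The 10 Schwann cell markers summed to between 68.4 and 74.2 CPM and to between 27.8 and 30.8 CPM, with 7 of 9 tested lower and none higher. The 8 fibroblast markers summed to between 2974 and 3060 CPM and to between 3766 and 3981 CPM, with 3 higher and 2 lower. Within this sum *Dcn* rose from 1112 to 1975 CPM, while the median log2 fold change of the list was −0.052. The 10 smooth muscle markers summed to between 2545 and 2697 CPM and to between 2351 and 2443 CPM, with 6 lower and 1 higher. Endothelial markers summed to between 6.53 and 9.18 CPM and to between 6.68 and 8.75 CPM. Cardiac muscle markers summed to between 1.39 and 2.40 CPM and to between 5.01 and 8.80 CPM, with all 3 tested higher. Of these 3, *Myh6* had 0 to 3 counts in WT samples and *Myl7* had 0. Both passed the filter only through the Hint1-/- samples, with 32.3 to 58.5 and 13 to 34 counts. For them a lower level could not have been found. The 5 other cardiac markers fell below the filter and did not share 1 direction. *Actc1*, *Myl3*, and *Ryr2* had higher means in Hint1-/- samples. *Myl2* averaged 0.084 CPM in both genotypes, and *Nppa* was lower in Hint1-/- samples, at 0.132 CPM against 0.227 CPM in WT. Of all tested genes, 11.2% were higher and 10.2% lower by the test described below, and 23.0% did not overlap between the genotypes. Of the listed markers, *Myl7* and *Myl3* were at 0 in all 4 WT samples, and no listed marker was at 0 in all 8 samples. The endothelial sums overlapped between the genotypes, with no marker past the test, and the other 5 sums did not overlap. The part of these 5 in the results below was not tested. In bulk RNA, fewer cells of a type and less RNA per cell cannot be told apart.

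The feedback inhibitors did not move as 1 group. *Spry1*, *Spry2*, *Spry4*, and *Etv5* were higher in Hint1-/- MASMCs by 12.1% to 19.8%, *Dusp4*, *Dusp5*, and *Spred1* were lower by 10.7% to 18.9%, and *Dusp6*, *Spred2*, and *Spred3* did not pass the test. To pass, a gene needed a Benjamini-Hochberg adjusted p under 0.05 over all 13535 genes by the two-sided quasi-likelihood test of edgeR. In this way 7 of the 10 genes passed, where 21.5% of all tested genes did, with 4 higher against a background of 11.2% and 3 lower against a background of 10.2%. The 10 genes had been chosen with earlier results of these data known, so these shares are a description. Among the 8864 genes whose mean count lay within the range of these 10 (200 to 4357 counts per sample), the share that passed was 22.6%. For the 7 genes that passed, no WT sample fell within the range of the Hint1-/- samples or the reverse, as was seen for 23.0% of all tested genes. The changes were small. None of the 10 reached the study's second limit, a fold change over 1.5, which 2.83% of tested genes passed together with the limit on p. This count was also 0 in DESeq2 and limma-voom, and 0 at an unadjusted p under 0.05, at which 7 genes passed if no fold was required. The median log2 fold change was 0.0079 over the 10 genes and 0.00031 over all tested genes, while its median size was 0.19 and 0.088.

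**Figure D1:**
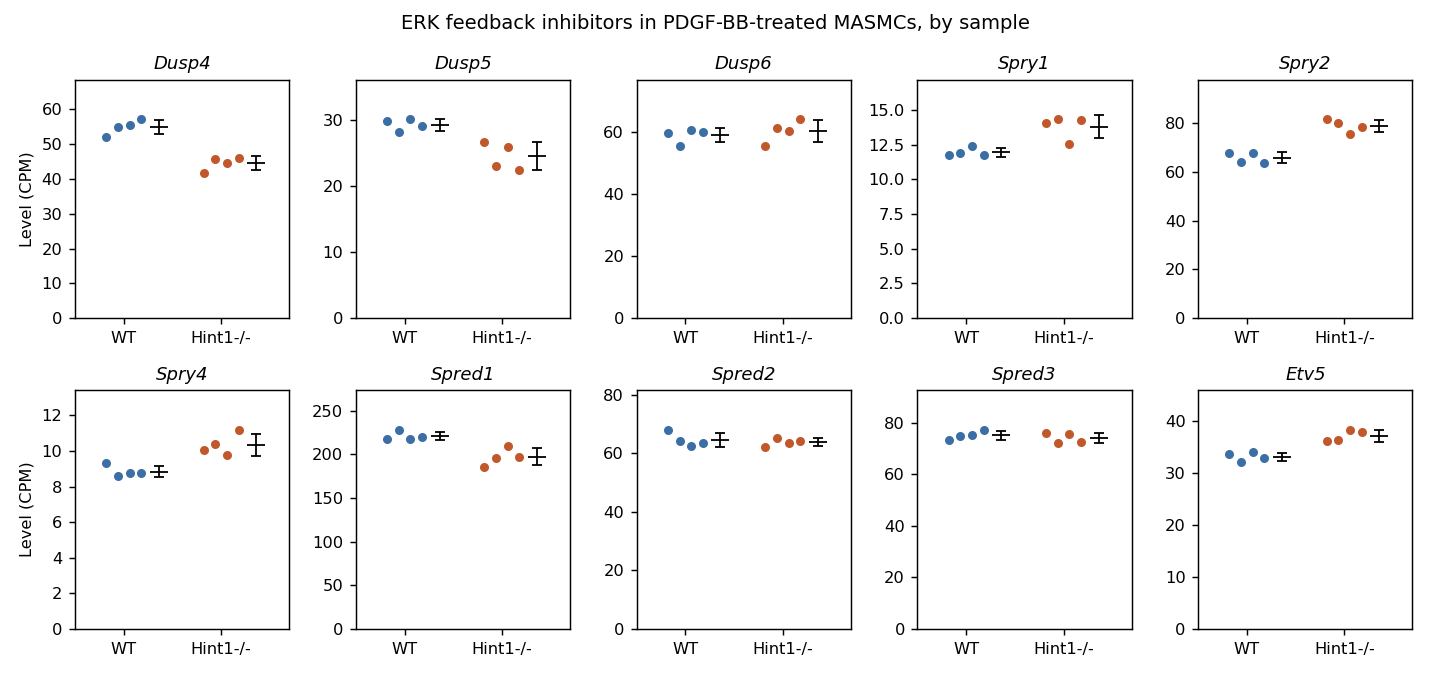
Level of each gene (CPM, linear axis from 0) in the 4 WT and 4 Hint1-/- samples, with the mean and SD of each genotype beside the points. The genotypes separate in 7 genes and overlap in *Dusp6*, *Spred2*, and *Spred3*.

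The phosphatases differed among themselves. *Dusp4*, which encodes a nuclear phosphatase of ERK and JNK, spans bases 34807297 to 34819894 of chromosome 8 (mm10, as for all positions below). Its estimated counts were 1087, 1153, 1160, and 1192 in WT replicates 1 to 4 and 866, 948, 928, and 955 in Hint1-/- replicates 1 to 4. The 4 knockout samples were all lower than the lowest WT sample. WT samples averaged 54.9 ± 2.07 CPM and knockout samples 44.6 ± 1.95 CPM (mean ± SD of n = 4 each), with a log2 fold change of −0.30 (SE 0.042), and edgeR gave an adjusted p of 3.15e-05. This was the largest change among the 10 genes.

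*Dusp5*, which encodes a nuclear phosphatase specific to ERK, lies on chromosome 19 from 53529109 to 53542431. It was counted 622, 589, 628, and 605 times in WT samples and 552, 477, 539, and 464 times in Hint1-/- samples. The knockout samples were again all lower, and they were more spread out than the WT samples. From 29.2 ± 0.896 CPM the level fell to 24.5 ± 2.10 CPM (mean ± SD of n = 4 each), a log2 fold change of −0.26 (SE 0.058), and edgeR gave an adjusted p of 0.00341.

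*Dusp6* encodes the cytoplasmic phosphatase that binds and inactivates ERK, and lies on chromosome 10 from 99263231 to 99267489. Its counts of 1244, 1168, 1267, and 1256 in WT samples and 1150, 1268, 1252, and 1330 in Hint1-/- samples overlapped. The lowest and the highest sample were both Hint1-/-. Its log2 fold change was 0.030 (95% interval −0.063 to 0.12), and edgeR gave an adjusted p of 0.691. The interval corresponds to folds of 0.958 to 1.09, and lies above that of *Dusp4*, which ran from −0.39 to −0.21, and that of *Dusp5*, which ran from −0.38 to −0.13.

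All 3 Sprouty genes were higher in the knockout. *Spry2*, the most abundant of them, lies on chromosome 14 from 105891947 to 105896819, and its product blocks signalling from the receptor to Ras. WT samples had 1411, 1343, 1416, and 1324 counts and Hint1-/- samples had 1687, 1650, 1572, and 1625 counts. The lowest knockout sample exceeded the highest WT sample by more than the whole range of the WT samples. The level rose from 65.7 ± 2.31 CPM to 78.7 ± 2.46 CPM (mean ± SD of n = 4 each), a log2 fold change of 0.26 (SE 0.037), and edgeR gave an adjusted p of 4.35e-05. In 5 of the 8 samples the *Spry2* count was not a whole number, which can arise where a read is divided between genes. These were all 4 Hint1-/- samples and WT replicate 4. The part of such reads in the difference was not tested.

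*Spry1*, on chromosome 3 from 37639947 to 37644598, encodes an inhibitor of the same step. It had 245, 249, 260, and 245 counts in WT samples and 292, 296, 261, and 296 counts in Hint1-/- samples. Knockout replicate 3 lay far below the other 3 knockout samples and just above the highest WT sample. Means were 11.9 ± 0.328 CPM for WT and 13.8 ± 0.839 CPM for the knockout (mean ± SD of n = 4 each), with a log2 fold change of 0.21 (SE 0.065), and edgeR gave an adjusted p of 0.0267. This call was less firm than that for *Spry2*. The adjusted p was 0.114 in DESeq2, 0.0613 without WT replicate 1, and 0.0623 without WT replicate 4. It was 0.0657, 0.0739, and 0.0807 without Hint1-/- replicates 1, 2, and 4, while the log2 fold change stayed between 0.19 and 0.25.

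*Spry4* is another inhibitor of the family, on chromosome 18 from 38586247 to 38601415, with 194, 180, 183, and 183 counts in WT samples and 208, 215, 203, and 232 counts in Hint1-/- samples. It had the lowest counts of the 10 genes, and its groups did not overlap. Its level was 8.85 ± 0.315 CPM and 10.3 ± 0.614 CPM (mean ± SD of n = 4 each), its log2 fold change was 0.22 (SE 0.072), and edgeR gave an adjusted p of 0.0330. The adjusted p was over 0.05 in DESeq2, at 0.143. It was also 0.0687, 0.0746, and 0.0650 without WT replicates 2, 3, and 4, and 0.0658 and 0.116 without Hint1-/- replicates 2 and 4. The direction did not change in any of these fits.

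Of the Spred genes, *Spred1* alone passed the test. It lies on chromosome 2 from 117121374 to 117182279 and encodes an adaptor that binds neurofibromin. Counts were 4550, 4782, 4564, and 4582 in WT samples and 3858, 4050, 4368, and 4100 in Hint1-/- samples. Each knockout sample was lower than each WT sample, and WT replicate 2 lay above the other 3 WT samples. The level fell from 221 ± 4.65 CPM to 197 ± 9.83 CPM (mean ± SD of n = 4 each), with a log2 fold change of −0.16 (SE 0.037), and edgeR gave an adjusted p of 0.00320.

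*Spred2*, on chromosome 11 from 19924375 to 20024026, encodes a related Ras inhibitor. Its counts were 1415, 1346, 1304, and 1323 in WT samples and 1290, 1352, 1321, and 1332 in Hint1-/- samples, and none of the 8 was a whole number. The groups overlapped, and the log2 fold change was −0.014 (95% interval −0.091 to 0.063), and edgeR gave an adjusted p of 0.838. *Spred3*, the third gene of the family, lies on chromosome 7 from 29158829 to 29170411, and *Ggn*, with 55 to 99 counts, overlaps it on the opposite strand. It had 1526, 1574, 1573, and 1611 counts in WT samples and 1575, 1493, 1578, and 1505 counts in Hint1-/- samples. These groups overlapped too, with a log2 fold change of −0.020 (95% interval −0.093 to 0.053), and edgeR gave an adjusted p of 0.747. For *Spred1* the interval ran from −0.24 to −0.086, and it overlaps those of the other two Spred genes by a narrow margin. Differences between genes in their fold change were not tested.

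*Etv5* lies on chromosome 16 from 22381309 to 22439719. It had 701, 676, 711, and 686 counts in WT samples and 749, 752, 796, and 789 counts in Hint1-/- samples. All knockout samples were higher than all WT samples. Means were 33.2 ± 0.794 CPM for WT and 37.2 ± 1.11 CPM for the knockout (mean ± SD of n = 4 each), a log2 fold change of 0.16 (SE 0.042), and edgeR gave an adjusted p of 0.00804. The call held in each of the 15 alternative fits, with an adjusted p of at most 0.0315, in DESeq2. The calls for *Dusp4*, *Dusp5*, *Spry2*, and *Spred1* also held in all 15, with an adjusted p of at most 0.000223, 0.0168, 0.000344, and 0.0175.

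**Figure D2:**
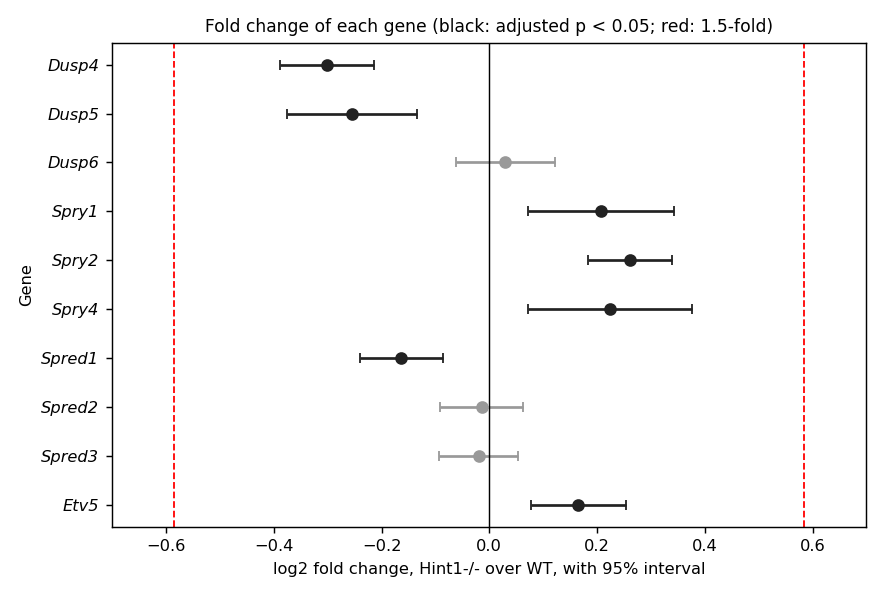
Log2 fold change of each gene, Hint1-/- over WT, with its 95% interval from edgeR's fit (n = 4 per genotype). Black points passed an adjusted p under 0.05, gray points did not, and the dashed lines mark a 1.5-fold change, which no interval reaches. The 3 Sprouty genes and *Etv5* lie to the right of 0, and *Dusp4*, *Dusp5*, and *Spred1* to the left.

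**Figure D3:**
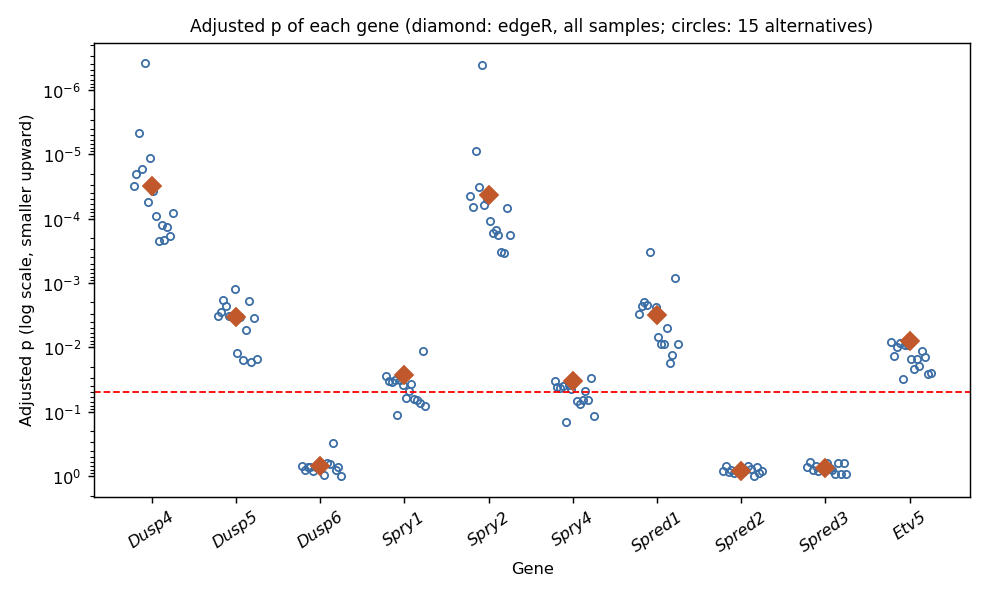
Adjusted p of each gene (log axis, smaller values upward) in edgeR's fit with all 8 samples (diamonds) and in the 15 alternative fits (circles), with a dashed line at 0.05. *Dusp4*, *Dusp5*, *Spry2*, *Spred1*, and *Etv5* stay above the line, *Spry1* and *Spry4* cross it in 6 fits each, and *Dusp6*, *Spred2*, and *Spred3* stay below it.

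Levels of different genes were compared per kilobase, as CPM divided by the joined length of each gene's annotated exons, since longer transcripts give more reads. On this scale *Spred1* at 32.6 ± 0.685 and *Spry2* at 31.5 ± 1.10 CPM per kilobase led in WT samples (mean ± SD, n = 4), and their ranges overlapped. *Dusp4* at 20.0 ± 0.755 and *Dusp6* at 18.8 ± 0.725 followed, again with overlapping ranges. *Spred2* stood at 13.9 ± 0.520, then *Spred3* at 12.1 ± 0.263 and *Dusp5* at 11.8 ± 0.362, which overlapped each other. *Etv5* at 8.09 ± 0.194, *Spry1* at 4.11 ± 0.113, and *Spry4* at 1.86 ± 0.0663 came last and did not overlap.

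In Hint1-/- samples the order changed in 2 places. *Spry2* at 37.7 ± 1.18 CPM per kilobase stood above *Spred1* at 29.1 ± 1.45, and *Dusp6* at 19.2 ± 1.14 stood above *Dusp4* at 16.3 ± 0.712, and neither pair overlapped (mean ± SD, n = 4). *Dusp5* at 9.90 ± 0.849 overlapped *Etv5* at 9.06 ± 0.270. The exon lengths join all annotated transcripts, so a level per kilobase is lower than the true one where a gene's shorter transcripts are used.

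Summed per kilobase, the 3 Sprouty genes stood at 37.5 ± 1.21 in WT and 44.7 ± 1.46 CPM per kilobase in Hint1-/- samples. The 3 phosphatases summed to 50.7 ± 1.27 and 45.4 ± 1.15, and the 3 Spred genes to 58.6 ± 0.730 and 54.8 ± 1.56 (mean ± SD of n = 4 each). *Spry2* made up 84.0% of the Sprouty sum in WT and 84.5% in Hint1-/- samples, so the balance among these 3 genes was nearly the same. *Spry3*, described below, had no exon length here and is not in this sum. Among the phosphatases the share of *Dusp4* was 39.5% ± 1.26 in WT and 35.8% ± 0.814 in Hint1-/- samples, while that of *Dusp6* was 37.2% ± 0.773 and 42.4% ± 1.57 (mean ± SD of n = 4 each). These sums follow from the levels of the genes above and were not tested.

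The genes whose log2 CPM followed a member most closely over the 8 samples are given as a description, since a shared difference between the genotypes alone gives a high correlation. Among those closest to *Spry2* were *Mmp2* and *Dab2ip*, with Pearson's r of 0.990 and 0.989. *Tox3*, *Adipor2*, and *Gata6* were closest to *Etv5*, with r of 0.988, 0.983, and 0.980, and *Rragd*, *Tcf25*, and *Borcs5* to *Dusp6*, with r of 0.945, 0.941, and 0.911. *Tox3* and *Rragd* had at most 27 and 53 counts in any sample.

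The rest of the pathway was described with 4 gene lists, also chosen with earlier results of these data known. Of the 7 other dual-specificity MAP kinase phosphatases, *Dusp16*, whose product acts on JNK and p38, was higher, with a log2 fold change of 0.17 (SE 0.038), and edgeR gave an adjusted p of 0.00271. The other 6 did not pass, and the share of 14.3% compares with 21.5% of all tested genes. Without WT replicate 4, *Dusp9* also passed at −0.82 on the log2 scale (adjusted p = 0.0492 from edgeR's test), at 10 to 30 counts per sample. The median log2 fold change of the list was −0.017.

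Of 22 other inhibitors of receptor tyrosine kinase, Ras, or Raf signalling, 5 were higher and 4 were lower, or 40.9% in all, against 21.5% of all tested genes (11.2% higher and 10.2% lower). The median log2 fold change was 0.042. Larger changes were found here than among the 10 feedback genes. *Socs2*, an inhibitor of cytokine receptor signalling, had 165 to 187 counts in WT and 282 to 314 counts in Hint1-/- samples, a log2 fold change of 0.79 (SE 0.068). *Spry3*, the fourth Sprouty gene, had 66 to 98 and 120 to 136 counts, a log2 fold change of 0.70 (SE 0.12). Both passed the fold limit of 1.5, with adjusted p of 9.74e-08 and 0.000423 from edgeR's test. *Errfi1*, a feedback inhibitor of the EGF receptor, rose from 337 ± 5.59 CPM to 458 ± 5.01 CPM (mean ± SD of n = 4 each), and *Socs3* had a log2 fold change of 0.16. With all of them higher, the 4 Sprouty genes of the mouse shared 1 direction, although *Spry1* and *Spry4* did so with the less firm calls given above.

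Those lower on this list were *Dok2* at −0.20, *Dok1* at −0.18, *Sh2b3* at −0.15, and *Lrig3* at −0.12 on the log2 scale. *Dok1* and *Dok2* encode adaptors that recruit a Ras inactivator. The calls for *Dok1* and *Sh2b3* held in all 15 alternatives. That for *Dok2* (adjusted p = 0.0430 from edgeR's test) was lost in DESeq2 (0.0534) and without WT replicates 1, 2, or 4 or Hint1-/- replicates 1 or 4, with an adjusted p up to 0.153. That for *Lrig3* (adjusted p = 0.0459 from edgeR's test) was lost in DESeq2 (0.107), in limma-voom (0.0527), with no filter on low counts (0.0551), and without WT replicates 1, 2, or 3 or Hint1-/- replicates 2, 3, or 4, with an adjusted p up to 0.149.

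Of 23 genes in the core of the cascade, from the PDGF receptors to ERK and its RSK kinases, 3 were higher and 1 was lower. This share of 17.4% lay near the 21.5% of all tested genes. The median log2 fold change was 0.011, and its median size was 0.033, against 0.088 over all tested genes. *Pdgfra* rose from 289 ± 6.58 CPM to 365 ± 14.6 CPM (mean ± SD of n = 4 each), a log2 fold change of 0.33 (SE 0.034), and edgeR gave an adjusted p of 9.11e-07. It is also a fibroblast marker. *Pdgfrb*, the main PDGF-BB receptor of smooth muscle, did not pass, at 0.042 (SE 0.038), and edgeR gave an adjusted p of 0.486. *Map2k1*, which encodes the kinase that activates ERK, was higher at 0.20, and the scaffold *Ksr1* at 0.21. *Rps6ka1*, which encodes an RSK kinase below ERK, was lower at −0.30. The call for *Ksr1* was lost without Hint1-/- replicate 3 (adjusted p = 0.0577 from edgeR's test). *Mapk3*, which encodes an ERK itself, had a log2 fold change of 0.033 (95% interval −0.043 to 0.11), and edgeR gave an adjusted p of 0.580.

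Of 19 other transcripts that ERK induces, 4 were higher and 4 were lower, or 42.1% in all, against 21.5% of all tested genes (11.2% higher and 10.2% lower). Their median log2 fold change was −0.011. *Ier3* at 0.24, *Fosl2* at 0.21, *Phlda1* at 0.19, and *Myc* at 0.16 on the log2 scale were higher. *Hmga2* at −0.30, *Ccnd1* at −0.29, *Fos* at −0.26, and *Etv1* at −0.17 were lower. *Ccnd1* encodes cyclin D1, which carries growth factor signals to the cell cycle, and *Etv1* is a relative of *Etv5* from the same ETS subfamily. *Etv5* and *Etv1* thus differed in direction, and *Etv4*, the remaining gene of that subfamily, did not pass. The call for *Fos* (adjusted p = 0.0365 from edgeR's test) was lost in DESeq2 (0.103) and without WT replicates 1, 2, or 3 or Hint1-/- replicates 1 or 4, with an adjusted p up to 0.115. That for *Etv1* (adjusted p = 0.0264 from edgeR's test) was lost without WT replicates 2 or 4 or Hint1-/- replicates 1, 2, or 4, with an adjusted p up to 0.0922.

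**Figure D4:**
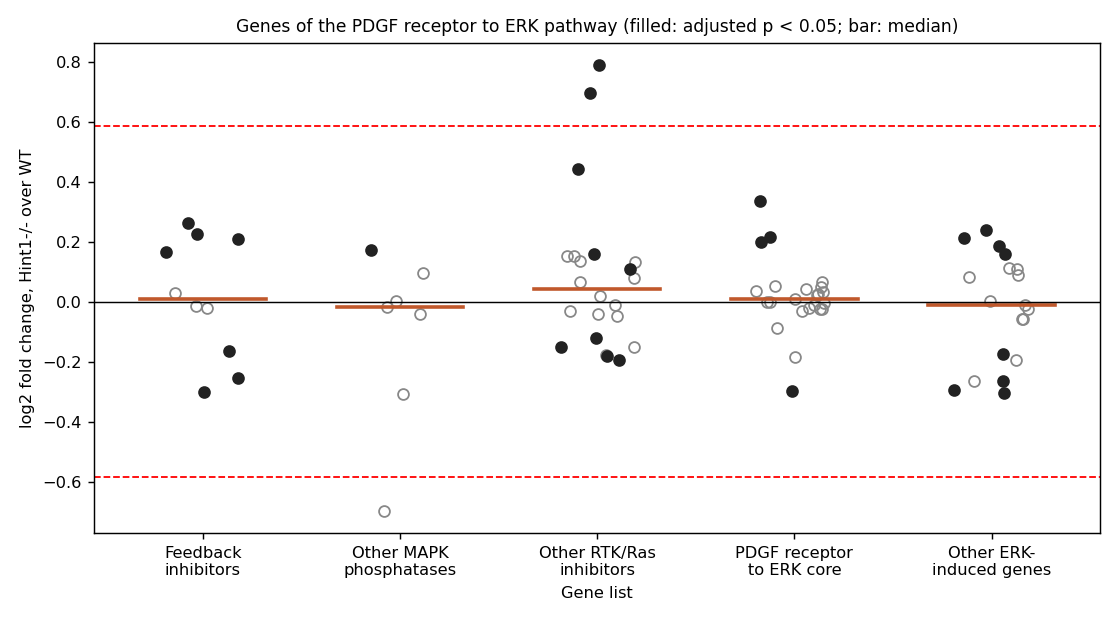
Log2 fold change, Hint1-/- over WT, of the 10 feedback genes and of the genes in 4 further lists of the PDGF receptor to ERK pathway. Filled points passed an adjusted p under 0.05 in edgeR's test, bars are medians, and dashed lines mark a 1.5-fold change. The medians lie near 0, and only *Socs2* and *Spry3* among the filled points lie beyond a dashed line.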

How the data were processed

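RNA-Seq (BGISEQ-500, short reads) was performed by the authors on PDGF-BB–treated MASMCs, and estimated counts per gene symbol, without normalization, were deposited for each of the 8 samples. The study's methods name HISAT2 and the mm10 build, and the submitters' processing notes list Bowtie2, RSEM 1.3.1, and DESeq2 1.4.5. The gene annotation and the use of strand are not given in the sources used here. Between 67.3% and 67.8% of values per sample were whole, and the counts were rounded before testing.

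Samples were grouped by genotype as labelled. After a filter with filterByExpr and TMM scaling, genotype was the only term of a quasi-likelihood fit (glmQLFit, glmQLFTest) in edgeR 4.0.16 (R 4.3.3). The SE is the log2 fold change over the square root of F, and intervals are at 95%. CPM values use the TMM library sizes. Pairs of libraries of 1 genotype differed by 2.06 to 5.48 per gene in chi-square, and none was a duplicate. Alternatives were DESeq2 1.42.0, limma-voom (limma 3.58.1), RLE and upper-quartile scaling, omission of the filter, a minimum of 10 counts in each library, a block for replicate number, and each sample left out.

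The members, pathway lists, and marker lists were chosen with earlier results of these data known. Each member was named. From each pathway list, genes past the adjusted p were named, up to the 4 largest changes in each direction, with *Pdgfra* and *Pdgfrb*, and some genes are not reported here. Other genes named (*Dusp9*, *Etv4*, *Mapk3*, *Acta2*, *Tagln*, *Des*, *Cald1*, *Myh11*, *Cnn1*, *Smtn*, *Dcn*, *Myh6*, *Myl7*, *Myl2*, *Myl3*, *Actc1*, *Nppa*, *Ryr2*, *Ggn*) were chosen after their values were seen. Positions and exon lengths came from GENCODE M21 on mm10 by symbol, which gave 1 gene model for 17709 symbols. Start windows came from RefSeq on GRCm38.p6. Molecular identifiers are not mentioned in the sources used here.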

Additional observations from a re-analysis of the deposited data

Results flagged for a closer look

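For 3 genes, the log2 CPM of a single sample was set apart from the remaining 3 of its genotype, measured as the distance to its nearest neighbour over the whole range. *Spry1* had 261 counts in Hint1-/- replicate 3 against 292 to 296 in the other knockout samples, which gives 0.881 of the range. *Spred1* had 4782 counts in WT replicate 2 against 4550 to 4582, which gives 0.862. *Dusp16* had 842 counts in Hint1-/- replicate 3 against 866 to 872, which gives 0.872. Chance marks about 1 in 20 such groups, or 3.4 of the 68 examined. No group's total counts had such a sample.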

How the results depend on the processing

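Of the 10 genes, 7 passed an adjusted p under 0.05 in the fit with all samples and between 5 and 7 with 1 sample left out, with 5 in DESeq2. *Dusp4*, *Dusp5*, *Spry2*, *Spred1*, and *Etv5* kept their calls in all 15 alternatives, and *Spry1* and *Spry4* each lost theirs in 6. With 1 sample left out, *Dusp6* ranged from −0.00071 to 0.068 and *Spred2* from −0.030 to 0.012 on the log2 scale, so that the sign turned without Hint1-/- replicate 4 for *Dusp6* and without WT replicate 1 for *Spred2*. Over all tested genes, 2907 passed in the fit with all samples, 2336 in DESeq2, and between 2258 and 2909 with 1 sample left out. The other dual-specificity phosphatases past the limit numbered 1 to 2 with 1 sample left out. The median log2 fold change of all genes was −0.011 with upper-quartile scaling and 0.0044 in DESeq2.

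With the replicate number as a block, 7 of the 10 genes and 3082 of all tested genes passed, and no call of the 10 changed. Deviations from the group mean in same-numbered samples correlated at −0.045 to 0.081 across 13535 genes, so the numbers do not show a pairing. *Spry1* and *Spry4* had the lowest counts of the 10 genes, at 180 to 296 per sample, and the largest SE of the log2 fold change, at 0.065 and 0.072; the cause of their lost calls was not tested.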
